A study of Mus musculus with 6 samples.

Results

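The genes described here were the fibroblast growth factor (Fgf) ligands, their receptors, and the feedback inhibitors and ETS transcription factors that Fgf signaling is known to induce. Of 37 genes listed by name, 36 could be placed on the chromosomes of the peak lists, against 21915 other protein-coding genes of the mouse annotation GENCODE vM21 (21951 in all). Spry3, a Sprouty gene, lies on an unplaced scaffold and was not counted. For each gene, peaks whose midpoint fell in the gene body or within 50 kb on either side of it were counted in 3 lists of chromatin immunoprecipitation sequencing (ChIP-seq) peaks, and each peak was placed in a class by whether it shared at least 1 bp with a peak of another list. Distances run from the middle of a peak or site to the nearest annotated transcript start of the gene named, so that genes with several starts have several points of reference.

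The lists came from CD1 mouse embryos at embryonic day 11.5 that carried a FLAG tag in the endogenous gene of either Gli3, a zinc finger factor that relays Hedgehog signals, or Hand2, a basic helix-loop-helix factor that patterns the lower jaw. The labels call both alleles 3XFlagbio, whereas the study's methods use that name for the Gli3 allele and 3xFlag for the Hand2 allele, a separate mouse line. Chromatin of pooled, formaldehyde-fixed tissue was precipitated with an antibody to the FLAG epitope. Gli3 was profiled in the whole face (frontonasal, maxillary and mandibular prominences together) and in the mandibular prominence (MNP), and Hand2 in the MNP alone, with 2 biological replicates, as the study's methods call them, for each of the 3 groups. Both replicates of a group were merged into 1 list, so that no count below has an error between samples, and the reads behind the peaks are unknown. The lists held 5427 Gli3 MNP peaks with a median width of 577 bp, 5752 Gli3 whole face peaks of 222 bp and 59583 Hand2 MNP peaks of 451 bp. All 70762 peaks named both replicates. Both tissues hold epithelium, mesenchyme and other cells, and a peak list does not say in which of them a factor was bound.

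Secreted Fgf ligands bind receptor tyrosine kinases together with heparan sulfate, and the endocrine ligands do so with Klotho co-receptors. The MAP kinase cascade below the receptors induces ETS factors (Etv1, Etv4, Etv5) and negative regulators (Sprouty and Spred proteins and Dusp6, a phosphatase of ERK), which damp the signal. In the first pharyngeal arch, Fgf8 from the epithelium signals to the neural crest mesenchyme that forms the jaw, while Fgf10 is a ligand made by mesenchyme.

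Gli3 peaks of either tissue were found near 26 of the 36 genes, and Hand2 peaks near every one of the 36. At 18 of the 26, a Gli3 peak was nearest to the gene's own start. The share of other genes with a Gli3 peak in either tissue was not counted, so shares are compared list by list. In the MNP, 20 genes (55.6%) had at least 1 Gli3 peak in their window, compared with 43.3% of other protein-coding genes. In the whole face there were 22 (61.1%), compared with 32.6%. Hand2 peaks were present near 36 genes (100%), compared with 82.6% of other genes. For Fgf4, Fgf17, Fgf21, Fgf22, Fgfr4 and Spred3, every Hand2 peak in the window was nearer to the start of another gene. No test was run on these shares, because the genes were chosen with earlier results of these data known and because neighbouring genes share peaks.

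Split by Hand2, 15 genes (41.7%) had a Gli3 MNP peak that shared bases with a Hand2 peak, compared with 29.8% of other genes, and 10 (27.8%) had one that did not, compared with 22.0%. For the whole face list, 12 genes (33.3%) had a peak shared with Hand2, compared with 16.7%, and 14 (38.9%) had a peak without Hand2, compared with 21.5%. A Gli3 peak found in both tissues lay near 14 genes (38.9%), compared with 17.4% of other genes. The median density of the 36 genes was 0.475 Gli3 MNP peaks per 100 kb of window, and it was 0.570 for the whole face. The median of other genes was 0 in both, as fewer than 1 in 2 of them had a peak. The windows themselves were alike, with a median of 117 kb in both sets.

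**Figure D1:**
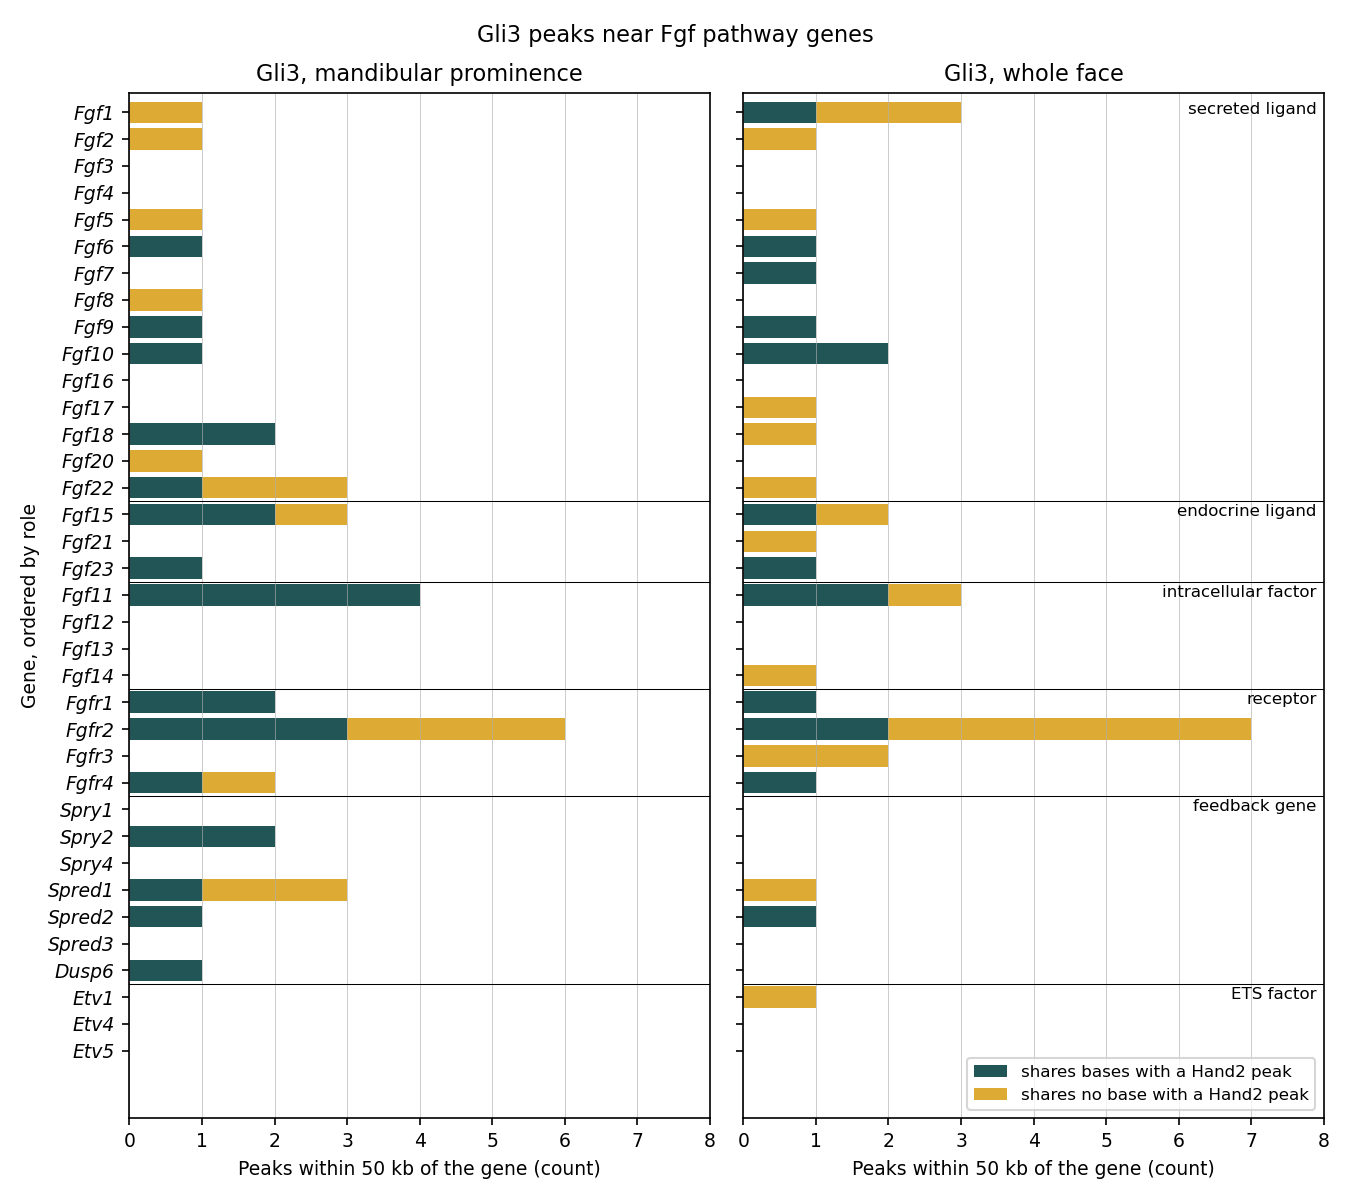
Gli3 peaks with midpoint within 50 kb of each of the 36 genes (bar length: peak count; dark part: peaks that share bases with a Hand2 peak; genes grouped by role). Fgf11 (4 peaks), Fgfr2 (6) and the feedback genes Spry2, Spred1, Spred2 and Dusp6 have bars in the MNP panel, and 10 genes have no bar in either panel. The Fgfr2 bars rest on a very long gene model.

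Peaks of the 2 tissues that shared bases were joined into 1 site, which gave 55 Gli3 sites near these genes. Of these, 16 were in both tissues, 21 in the MNP list only and 18 in the whole face list only. Hand2 peaks shared bases with 28 of the 55 sites, or 50.9% (95% Wilson interval 38.1 to 63.6, for counting error only). This was true of 10 of 16 sites in both tissues, 13 of 21 in the MNP only and 5 of 18 in the whole face only. The rest of the lists showed a similar split. There, 61.8% of MNP and 58.3% of whole face peaks found in both tissues shared bases with Hand2. So did 61.2% of peaks found in the MNP only and 41.2% of those found in the whole face only. Counted as peaks rather than sites, 23 of the 37 Gli3 MNP peaks near these genes (62.2%, 46.1 to 75.9) shared bases with Hand2, against 61.4% in the rest of the list. For the whole face list it was 14 of 34 (41.2%, 26.4 to 57.8), against 47.6%. In both tissues the share in the rest of the list lay inside the interval of the peaks near Fgf pathway genes. The level of sharing depended on the rule, since a contact of 1 bp counts. With at least 50% of the Gli3 MNP peak covered by Hand2 it was 14 of 37 (37.8%, 24.1 to 53.9), against 44.5% in the rest of the list, and with the midpoint in a Hand2 peak it was 15 of 37 (40.5%, 26.3 to 56.5), against 45.9%.

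The 3 kinds of site differed in where they lay. All 21 sites of the MNP list only were within 1 kb of the transcript start of a protein-coding gene. This held for 7 of 16 sites in both tissues and for 3 of 18 in the whole face only. In the rest of the lists, 83.1% of Gli3 peaks found in the MNP only lay that near a start, as did 15.2% of those found in the whole face only.

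The start in question was often not that of the Fgf pathway gene. A gene of the 36 had the nearest protein-coding start for 27 of 55 sites, and these belonged to 18 genes. Near Fgf22, Gli3 sites lay at the starts of Rnf126, Fstl3 and Palm. Near Fgf11 they lay at Polr2a, Nlgn2 and Plscr3, near Fgfr4 at Nsd1 (2 sites), near Fgf15 at or around Ccnd1 (3 sites), and near Fgf2 at Nudt6. Fgf8, the epithelial ligand of the arch, had 1 Gli3 MNP peak in its window, at -40280 bp from its start (negative: upstream) and at the start of Mgea5, and no whole face peak. The counts for Fgf2, Fgf8, Fgf15, Fgf17, Fgf21, Fgf22 and Fgfr4 rested entirely on sites nearer to the start of a gene outside the 36, and that for Fgf6 on 1 site nearer to Fgf23.

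**Figure D2:**
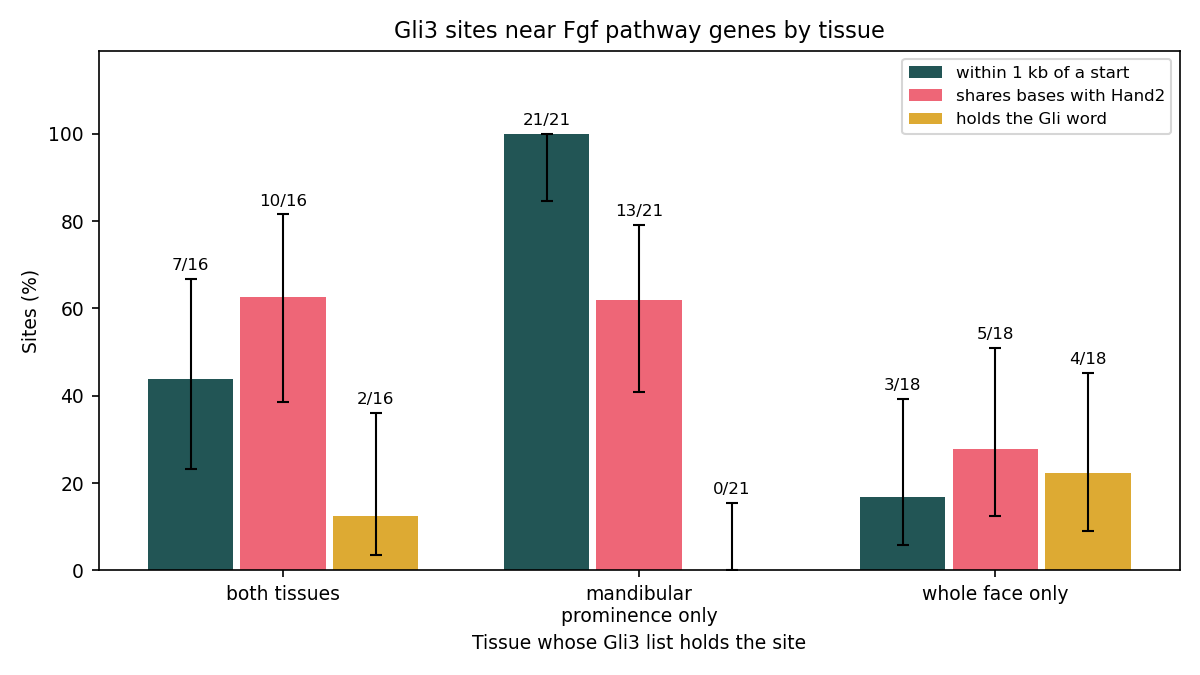
Shares of the 55 Gli3 sites, by the tissue whose list holds them, that lie within 1 kb of any protein-coding transcript start, share bases with a Hand2 peak, or hold the canonical Gli binding word (bars: percent of sites; error bars: 95% Wilson intervals for counting error; fractions: sites). The start-proximal share is 21 of 21 for sites in the MNP only and 3 of 18 for sites in the whole face only. The word is in 4.46% and 17.5% of the peaks of these classes in the rest of the lists.

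Words known to be bound by these factors were searched for on both strands of each site. GACCACCC is the canonical Gli binding motif and GACCTCCC a divergent form of it, while CAGATG is an E-box of the kind Hand2 binds. GACCACCC was present in 6 of 55 sites (2 of 16 in both tissues, 0 of 21 in the MNP only, 4 of 18 in the whole face only) and GACCTCCC in 2. In the rest of the lists the same classes held GACCACCC in 27.2% of MNP and 23.7% of whole face peaks found in both tissues, in 4.46% of those found in the MNP only, and in 17.5% of those found in the whole face only. Each of these shares lay inside the 95% interval of the class near Fgf pathway genes, as plotted in the shares of sites by tissue. In the middle 200 bp of peaks, so that lengths were equal, GACCACCC was in 6 of 34 whole face peaks (17.6%, 8.35 to 33.5) against 18.1% in the rest of that list, and in 1 of 37 MNP peaks (2.70%, 0.479 to 13.8) against 8.39%. GACCTCCC was in 1 of 34 (2.94%) against 5.51%, and in 0 of 37 (up to 9.41%) against 3.25%. CAGATG was present in 17 of 55 sites. Whole MNP peaks held it in 16 of 37 (43.2%, 28.7 to 59.1), against 27.1% in the rest of that list. The latter lay below the interval, but such intervals cover counting error only and are not tests. Many shares were compared in this way, and no difference was tested. In the middle 200 bp of MNP peaks CAGATG was in 5 of 37 (13.5%) against 10.6%, a value inside the interval. Whole peaks of the whole face list held it in 6 of 34 (17.6%, 8.35 to 33.5) against 23.4%. Among all 32851 RefSeq promoter windows of 300 bases, 0.807% hold GACCACCC, 1.28% GACCTCCC and 17.2% CAGATG. A match shows only that the letters are present.

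Gli3 sites that held a Gli word are shown next, because they are the places near these genes where a Gli3 peak and the word coincide. All sequences are from the GRCm38 (mm10) reference, 5′ to 3′, with the word in capitals. Where the word fell in an untranslated region, 30 bases around it are given.

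The Fgf18 site, with 2 copies of GACCACCC, lay in an intron of that gene, 1542 bp from its start (chr11:33145118-33145388, plus strand; the gene is on the minus strand). It was in the whole face list only, and no Hand2 peak shared bases with it. Fgf18 is a secreted ligand known for its role in skeletal growth.
Fgf18 intron: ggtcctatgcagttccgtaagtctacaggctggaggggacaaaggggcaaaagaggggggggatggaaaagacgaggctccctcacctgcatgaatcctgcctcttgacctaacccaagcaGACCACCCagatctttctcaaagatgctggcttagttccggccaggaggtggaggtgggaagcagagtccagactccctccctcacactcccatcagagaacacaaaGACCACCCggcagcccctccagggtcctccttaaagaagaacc

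The Fgf5 site lay between genes, 29607 bp downstream of the nearest Fgf5 start. It was in both tissues, and no Hand2 peak shared bases with it, although its 262 bp hold 1 CAGATG. The stretch shown is chr5:98283923-98284150, plus strand.
Fgf5 downstream: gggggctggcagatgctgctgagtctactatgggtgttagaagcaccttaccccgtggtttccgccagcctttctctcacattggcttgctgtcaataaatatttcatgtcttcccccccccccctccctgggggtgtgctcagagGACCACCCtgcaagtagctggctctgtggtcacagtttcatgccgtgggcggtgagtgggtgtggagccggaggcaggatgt

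Short stretches follow from 4 further sites: the 3′ untranslated region of Fgf10 (chr13:118791484-118791513, plus), the 5′ end of Spry2 (chr14:105896783-105896812, plus; the gene is on the minus strand), an untranslated region of Tmem256 beside the start of Nlgn2 (chr11:69838509-69838538, minus), and the 5′ end of Polr2a (chr11:69758312-69758341, plus). The last 2 lie in the window of Fgf11. The Fgf10 site was in the whole face list, the Spry2 site in the MNP list and the others in both. All 4 sites shared bases with a Hand2 peak. At Spry2 that peak began at chr14:105897060, so it shared 7 bp with the site and did not reach the word shown.
Fgf10 end: acatgaccatgGACCACCCacaaccaaaat
Spry2 start: ccgggatagatGACCTCCCttccagaagcg
Tmem256 and Nlgn2: aacaccgccctGACCACCCaacaagccagc
Polr2a start: ccaccaggaaaGACCTCCCgggatagggag
The site beside Nlgn2, whose MNP peak is 1862 bp wide, held 2 copies of the word, and 1 of them is shown. GACCACCC was also present in 1 Gli3 site of the Fgf1 window, 10042 bp upstream of the Fgf1 start and in the whole face list only, and in 1 whole face site in an intron of Ctbp2, which is in the window of Fgfr2 through the long model of that gene alone.

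Sites that lay within 1 kb of a transcript start of the gene itself numbered 13. At 3 of these the start belonged to an extended model in GENCODE that the RefSeq gene body does not reach: 2 at the start of Ctbp2 for Fgfr2, and 1 at Micu3 for Fgf20. The other 10 sites belonged to 8 genes (Dusp6, Fgf10, Fgfr1, Fgfr2, Fgfr3, Spred1, Spred2, Spry2), and 8 of the 10 shared bases with Hand2. In the rest of the Gli3 MNP list, at starts and elsewhere, 61.4% of peaks did so. The share for peaks at starts alone was not counted. The Spry2 site downstream of the start is among the 8 through a contact of 7 bp. By gene and with every model kept, 8 of 36 genes (22.2%) had a Gli3 MNP peak within 1 kb of a start, compared with 17.0% of other genes. For the whole face it was 4 (11.1%), compared with 6.14%, and for Hand2 16 (44.4%), compared with 33.7%.

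The feedback genes held 4 of the 8 Gli3 MNP starts. Dusp6, which removes phosphate from ERK, had a Gli3 MNP peak of 2445 bp (chr10:99261213-99263657) that ran over its start, wider than 99.2% of that list. Its merged name held 6 entries of replicate 1 and 3 of replicate 2. Hand2 peaks shared bases with it at 3 places, with midpoints 2037 and 1109 bp upstream and 39 bp downstream of the start. The whole face list had no peak in the Dusp6 window, and its nearest one was at -58535 bp from the start.

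Spry2, a Sprouty inhibitor of receptor signaling, had 2 Gli3 MNP peaks on either side of its start, at 294 bp downstream (1084 bp wide) and 637 bp upstream (315 bp wide). A single Hand2 peak of 507 bp touched both, sharing 7 bp with the former and 268 bp with the latter. No whole face peak lay in its window.

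Spred1 and Spred2, which block activation of the Raf kinase, both had a Gli3 MNP peak shared with Hand2 at the start. At Spred1 a peak of 775 bp was shared with a Hand2 peak of 200 bp, and a second one of 607 bp, 71 bp from the nearest start, was not. Another Spred1 site, at -28183 bp from the start, was in both tissues and without Hand2. Its MNP peak was only 154 bp wide, at the bottom of the widths of that list (percentile 0). Spred2 had the only site near a feedback gene that was in all 3 lists, 266 bp upstream of its start. The whole face peak there ended at chr11:19924024, and the Hand2 peak began at chr11:19924015. The stretch shown (chr11:19923954-19924253, plus strand) is printed because it holds the CAGATG of that site, in capitals. This CAGATG lies past the end of the whole face peak.
Spred2 start: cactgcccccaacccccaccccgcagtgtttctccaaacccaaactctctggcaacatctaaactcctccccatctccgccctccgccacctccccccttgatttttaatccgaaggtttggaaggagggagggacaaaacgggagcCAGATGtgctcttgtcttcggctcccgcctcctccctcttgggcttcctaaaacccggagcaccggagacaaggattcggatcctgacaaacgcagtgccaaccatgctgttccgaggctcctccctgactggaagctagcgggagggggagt

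Spry1, Spry4 and Spred3 had no Gli3 peak in either tissue. Of these, Spry4 had 11 Hand2 peaks, 1 of them 58 bp upstream of its start, Spry1 had 4 and Spred3 had 1. The ETS factors resembled Spry4: Etv4 and Etv5 had no Gli3 peak, and Etv1 had 1 in the whole face, in an intron 61848 bp from the nearest of its starts, yet all 3 had a Hand2 peak within 1 kb of a start. These Hand2 peaks were centred 344 bp from a start of Etv1, 1 bp from one of Etv4, and 253 bp upstream of one start of Etv5 and 941 bp downstream of another.

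Joined sites that were in both tissues and shared bases with a Hand2 peak, and so drew on all 3 lists, numbered 10. For 6 of them a gene of the 36 had the nearest start (Spred2, Fgf11, Fgf10, Fgf9, Fgf23 and Fgfr1), and for the other 4 it was a neighbour (Polr2a, Nlgn2, Nsd1, Ccnd1). The Fgf9 site was 77753 bp downstream of the nearest start of that ligand, and only 228 bp wide. The Fgf23 site, 21894 bp upstream, lay between Fgf23 and Fgf6 and counted for both. In Fgf11, an intracellular factor that is not secreted, the site was in an intron 1087 bp from the start. The whole face peak there (chr11:69800474-69800682) and the Hand2 peak (chr11:69800699-69801273) shared no base, and each overlapped the MNP peak.

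Fgf10, the mesenchymal ligand, had a site in all 3 lists close to its start, 357 bp downstream of the nearest one in the 5′ untranslated region. The Gli3 MNP peak there was 386 bp wide (chr13:118714864-118715249), with 1 entry from each replicate, and a Hand2 peak of 819 bp covered it. The site held 2 copies of CAGATG and no Gli word. Both are shown, the first on the plus and the second on the minus strand (chr13:118714939-118714968 and chr13:118714995-118715024), with CAGATG in capitals.
Fgf10 start, first copy: cgcagaggggcgCAGATGtcttcctgcacc
Fgf10 start, second copy: aggtctgaaaaaCAGATGacaggacggtga
Around Fgf10 were 17 Hand2 peaks, all of them nearer to the start of Fgf10 than to any other start, 9 of them inside the gene and 9 with CAGATG. The model in GENCODE begins 5′ of the RefSeq start, and with the RefSeq body the count was 13.

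Of the other secreted ligands, Fgf7 had 1 whole face site in an intron, 9113 bp from its start and shared with Hand2, and a Hand2 peak 111 bp upstream of the start. Fgf18 had 2 Gli3 MNP peaks shared with Hand2, both at the start of Npm1, beside the whole face site shown above. Fgf1 had 3 sites, all in introns of Arhgap26 although an Fgf1 start was the nearest, and 1 of them was in both tissues. The whole face site 34915 bp from the nearest Fgf1 start was shared with Hand2. Fgf17 had 1 whole face site at the start of Dmtn. Fgf3, Fgf4 and Fgf16 had no Gli3 peak, and Fgf20 had 1 that lies in an exon of Micu3. Among endocrine ligands, Fgf21 had 1 whole face site in an intron of Rasip1. Of the intracellular factors, Fgf14 had 1 whole face site 7224 bp from the nearest start, and Fgf12 and Fgf13 had none.

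The receptors all had a Gli3 peak in the whole face. Fgfr1 had a Gli3 MNP peak of 1245 bp centred 510 bp upstream of a start and shared with Hand2 (chr8:25518705-25519949), and a site in all 3 lists in an intron, 11243 bp from the nearest start. Fgfr2 had a Gli3 MNP peak of 797 bp, 111 bp from a start, shared with a Hand2 peak of 1031 bp. Fgfr3 had a whole face site 23 bp from its start that was in neither MNP list, and another 26205 bp upstream. Fgfr4 had only the sites at Nsd1.

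For Fgfr2 the counts depended on the gene model. GENCODE vM21 gives it 2.96 Mb, through 1 weakly supported transcript, and the RefSeq body spans 104 kb. By GENCODE it had 6 Gli3 MNP, 7 whole face and 111 Hand2 peaks. By RefSeq it had 1, 1 and 13, or 6.36 Hand2 peaks per 100 kb instead of 3.63. Of the 55 sites, 11 were near Fgfr2 by the long model only, and 8 of these 11 shared no bases with Hand2. Without them, 25 of 44 sites were shared with Hand2 (56.8%, 42.2 to 70.3).

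**Figure D3:**
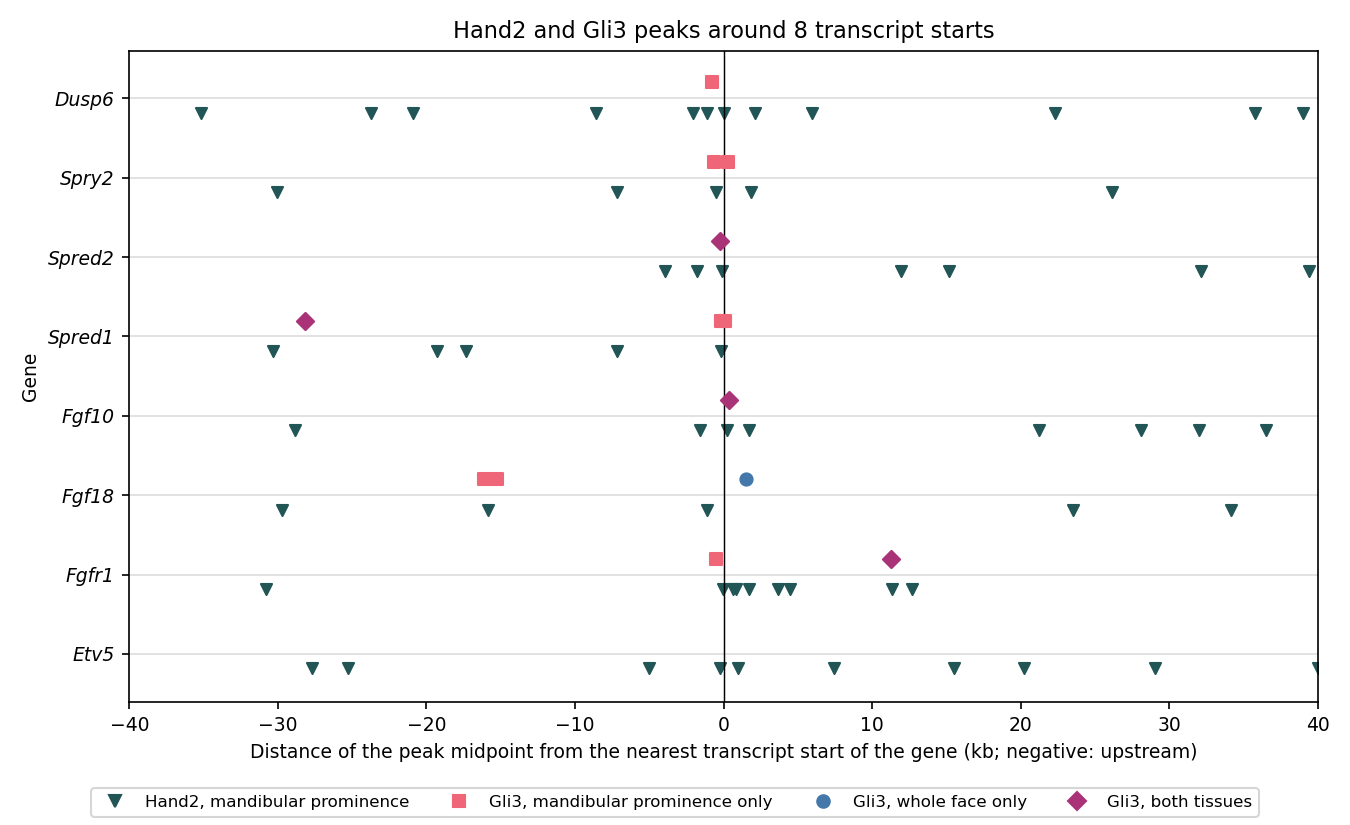
Midpoints of Hand2 peaks (triangles) and Gli3 sites (squares: MNP only; circle: whole face only; diamonds: both tissues) within 40 kb of the nearest transcript start of 8 genes (x axis: distance in kb, negative upstream; y axis: gene). A Gli3 MNP or shared site stands beside a Hand2 peak at the starts of Dusp6, Spry2, Spred2, Spred1, Fgf10 and Fgfr1, and Etv5 has Hand2 peaks alone.

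Hand2 peaks were spread widely over the pathway. Near the 36 genes were 312 Hand2 peaks, each counted once, and the median density was 3.83 per 100 kb, compared with 2.22 for other genes. A total of 28 of the 36 genes were above that median of the others. Of the 312 peaks, 111 were counted for Fgfr2 by its long gene model, and 15 of these 111 were nearest to an Fgfr2 start. With RefSeq gene bodies the total was 209, and the median density was 4.07 per 100 kb, compared with 2.26. Dusp6 was the densest, with 13 peaks or 12.5 per 100 kb, higher than 99.6% of protein-coding genes. It was followed by Spry4 (9.55 per 100 kb, above 98.3%), Fgfr1 with 13 peaks (8.02, above 96.5%), Fgf10 (7.65, above 95.6%) and Etv5 with 11 peaks (6.94, above 93.9%). All 13 peaks near Dusp6 and all 11 near Etv5 were nearest to that gene's own start, as were 9 of 11 near Spry4 and 11 of 13 near Fgfr1.

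By role, the median Hand2 density was 5.75 per 100 kb for the 3 endocrine ligands, 5.19 for the 3 ETS factors, 4.77 for the 7 feedback genes, 3.97 for the 4 receptors, 3.55 for the 15 secreted ligands and 0.784 for the 4 intracellular factors. Many of the endocrine ligands' peaks were nearest to the start of another gene: the gene's own start was the nearest for 0 of 6 peaks at Fgf21, 3 of 6 at Fgf15 and 2 of 4 at Fgf23. The lowest value was that of Fgf14, with 1 peak in 799 kb (0.125 per 100 kb), followed by Fgf12 with 4 peaks in 693 kb (0.577). Fgf11, with a gene of only 5.79 kb among close neighbours, had 7 peaks or 6.62 per 100 kb, and 6 of its 7 Hand2 peaks shared bases with a Gli3 peak. The start of Fgf11 was the nearest for only 1 of these 7, and the others were nearer to the start of a neighbour. Fgf8 had 4 Hand2 peaks, all downstream of the gene and none with CAGATG, at 3.77 per 100 kb. Fgf16, Fgf20 and Spred3 had 1 each.

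**Figure D4:**
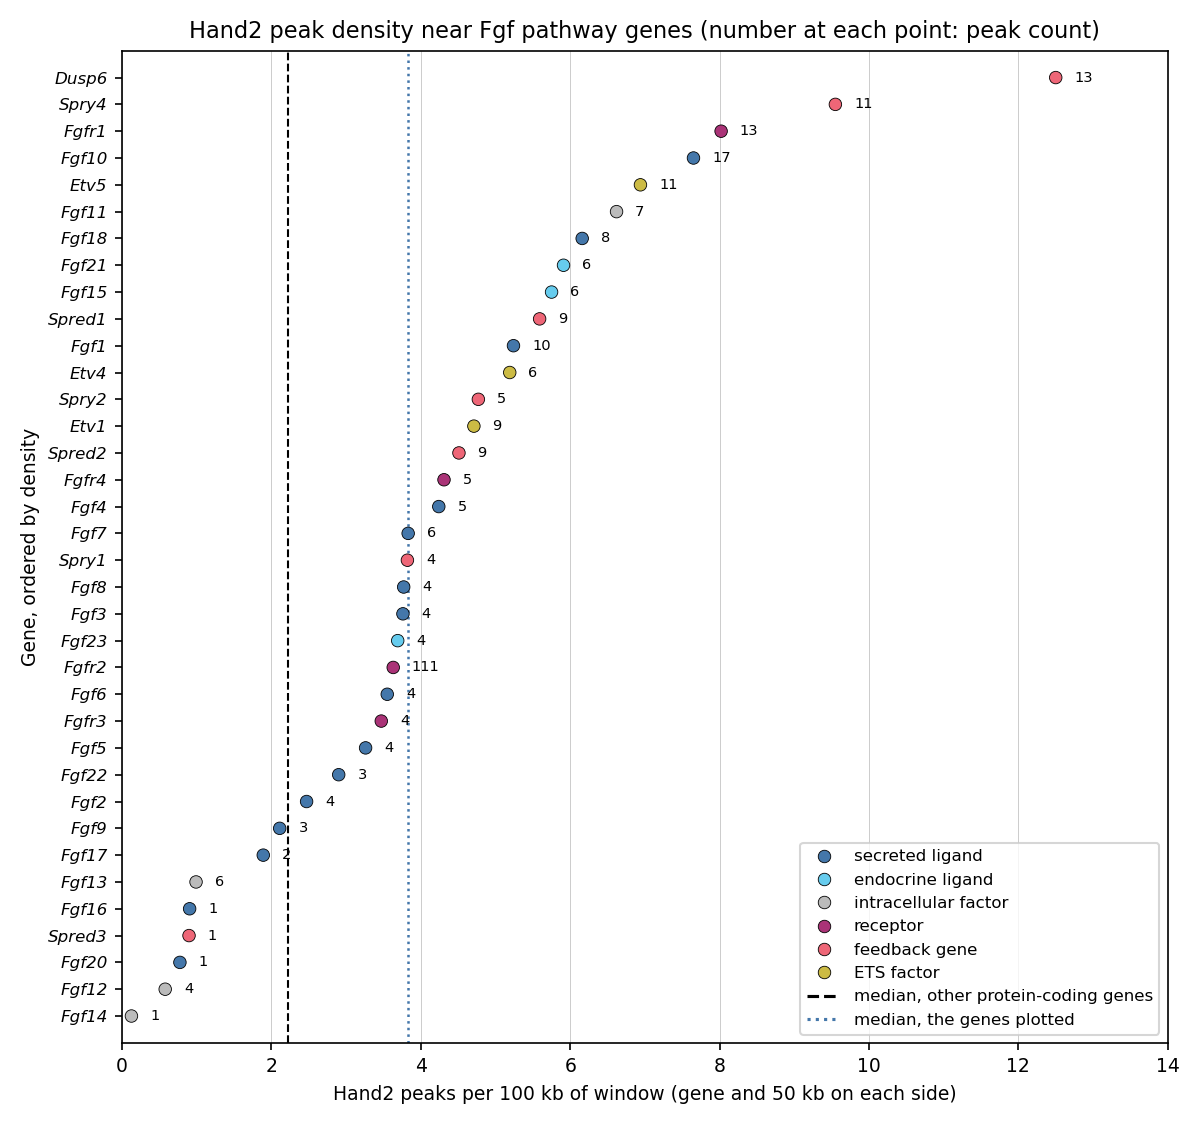
Hand2 peaks per 100 kb of window for the 36 genes, ordered by density (points: genes, coloured by role; number beside each point: peak count; dashed line: median of other protein-coding genes, 2.22; dotted line: median of the genes plotted, 3.83). Dusp6, Spry4, Fgfr1, Fgf10 and Etv5 stand at the top, and 3 of the 4 intracellular factors are below the dashed line.

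A Hand2 peak within 1 kb of a start was found for 5 of 7 feedback genes (Spry2, Spry4, Spred1, Spred2, Dusp6), all 3 ETS factors, 3 of 4 receptors (Fgfr1, Fgfr2, Fgfr3), 2 of 15 secreted ligands (Fgf7, Fgf10), 2 of 4 intracellular factors (Fgf11, Fgf12) and 1 of 3 endocrine ligands (Fgf23). Near Fgf pathway genes, 27 of 312 Hand2 peaks (8.65%, 6.02 to 12.3) shared bases with a Gli3 MNP peak, against 5.88% in the rest of the list. CAGATG was present in 144 of 312 Hand2 peaks (46.2%, 40.7 to 51.7), against 47.1%, and in the middle 200 bp of 25.3%, against 28.2%. CANNTG, the general E-box of which CAGATG is one form, was in the middle 200 bp of 74.0%, against 74.2%. For each of these E-box shares, the value in the rest of the list lay inside the 95% interval of the peaks near Fgf pathway genes. All shares of the 312 peaks include the 111 counted for Fgfr2 by its long gene model.

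For context, 25 other genes of the pathway (co-receptors, binding proteins, heparan sulfate enzymes and members of the Ras and MAP kinase cascade) were counted in the same way. A Gli3 MNP peak lay near 15 of the 25, one with Hand2 near 11, a whole face peak near 14, and a Hand2 peak near all 25, where the shares of all genes outside the 36 were 43.3%, 29.8%, 32.6% and 82.6%. Their median Hand2 density was 3.57 per 100 kb, beside 2.22. Sulf2, a sulfatase acting on heparan sulfate, had 16 Hand2 peaks, the most of the 25, with 1 Gli3 MNP and 2 whole face peaks. Il17rd (Sef), a feedback inhibitor of receptor signaling, had 15 Hand2 peaks (8.91 per 100 kb), 2 Gli3 MNP peaks and 3 whole face peaks, all 5 of them shared with Hand2.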

How the data were processed

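Per the labels, 1 x 75 bp reads were sequenced, and the submitters' processing notes name mm10, BWA, bedtools and HOMER without versions. The authors called peaks against mock ChIP and merged both replicates. The deposited files hold peak positions and merged names as their only values, with no score, fold or read count; which program called the whole face peaks is not known here. The series text gives embryonic day 10.5 where the labels give 11.5, which was used.

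Peaks were assigned by midpoint to GENCODE vM21 gene bodies with 50 kb flanks. Densities are peaks per 100 kb of window. Sequences were read from GRCm38 (RefSeq), and promoter windows came from RefSeq (GRCm38.p6, 250 bases before to 50 after a start; 27 of the genes matched). Overlap, window and motif code was tested on simulated data (Python 3.11.15, pysam 0.24.0, numpy 2.4.6). Wilson intervals (95%) came from scipy 1.17.1. Depth is unknown, and the merged biological replicates could not be compared.

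Genes and lists were chosen with earlier results of these data known, so no test was run. All 37 genes were to be accounted for, with fuller accounts of those with a Gli3 peak or the most Hand2 peaks. Sequences were to be those of Gli3 sites with GACCACCC or GACCTCCC; those in Ctbp2 and near Fgf1 (chromosome 18) are not printed, and the CAGATG stretches of Spred2 and Fgf10 were added after their values were seen. Alternatives changed the window, the gene assignment, the overlap rule, promoter peaks and peak width. RefSeq gene bodies were added after seeing the data.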

Additional observations from a re-analysis of the deposited data

How the results depend on the processing

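No paired analysis was possible because both replicates of each group were merged into 1 list, and leaving out a replicate was not possible for the same reason. The Hand2 count stayed within 1.5 times of 36 genes under every alternative run; requiring both replicates in a peak's name removed nothing, and RefSeq gene bodies moved no count of genes by over 1.5 times. With 10 kb flanks, genes with a Gli3 MNP peak were 11 (with Hand2 9, without 4, shared with the whole face 5), against 25.5% of other genes (16.3%, 11.1% and 8.54%), and with a whole face peak 12 (with Hand2 5, without 8), against 17.1% (8.25% and 10.6%), and the peaks near the genes were 19 in each Gli3 list. With gene bodies only these were 7 (5, 3 and 3), against 17.1% (10.9%, 6.82% and 5.02%), and 9 (4 and 6), against 10.1% (4.85% and 6.35%). With 100 kb flanks, 16 genes had a Gli3 MNP peak without Hand2 (31.6% of other genes), 19 had a whole face peak with Hand2 (25.8%), and 53 whole face peaks were near the genes. Without peaks at any protein-coding start, 9 genes had a Gli3 MNP peak (6 with Hand2, 4 without, 9 shared with the whole face) against 11.2% of other genes (6.16%, 6.02% and 8.17%), and 9 such peaks remained. With peaks at least as wide as their list's median, a whole face peak was near 11 genes (6 with Hand2, 6 without), against 20.3% (9.89% and 12.2%), a Gli3 MNP peak shared with the whole face near 5, against 8.55%, and the Hand2 median was 1.94 per 100 kb, against 0.933 for other genes. The Gli3 median densities were 0 in both tissues with 10 kb flanks, without promoter peaks and with wide peaks. The share of Gli3 MNP peaks with Hand2 was 37.8% where at least 50% of the peak had to be covered and 40.5% where its midpoint had to lie in a Hand2 peak. The settings alter which peaks are counted or which of them count as shared, and causes of the changes were not tested. Depth per sample is unknown, so weak sites could not be told from absent ones.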
